A study of Mus musculus with 9 samples.

Results

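The nuclear-encoded genes of respiratory complexes I, II and III and of ATP synthase (complex V) were followed in interferon-gamma-treated mouse macrophages of 3 genotypes. The genes were chosen by symbol: every symbol that began with Nduf, Uqcr or Atp5, together with Sdha, Sdhb, Sdhc and Sdhd, leaving out Ndufa4, Ndufa4l2 and pseudogene symbols. Of 72 such symbols, 71 were kept because 3 or more libraries had 1 TPM or more, a filter that 11133 of the 29763 genes in the deposited table passed. TPM is an abundance divided by transcript length and scaled to a fixed total per library, so levels can be compared between genes. The 71 genes comprise 42 complex I genes, 4 complex II genes, 8 complex III genes, 15 ATP synthase genes, and Atp5s and Atp5sl, whose symbols match although neither encodes a subunit of the enzyme. The sets are not complete, because genes listed under other symbols are missed. Among those are Cyc1 of complex III, Usmg5 and 2010107E04Rik of ATP synthase, and the complex I assembly factor gene 1810043H04Rik (Ndufaf8). The symbol not kept was Ndufa9, a complex I subunit gene, which lay between 0 and 2.04 TPM and passed 1 TPM in 2 libraries. Values of 0 in a table of estimated abundances can be failed estimates, so these do not show that Ndufa9 is barely expressed.

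The macrophages were grown from primary bone marrow for 7 days in medium with 30% L929 supernatant, a source of macrophage colony-stimulating factor. All 3 genotypes then received interferon-gamma at 40 ng/ml for 12 h, so no untreated cells enter any comparison. The genotypes were Ndufa4l3-miR-147-/- (Nmes1-deficient; here Ndufa4l3-miR147 KO), Ndufa4-/- (here Ndufa4 KO) and wild type (WT), with 3 polyA RNA libraries each. The labels call these libraries technical replicates and name no separate animals. The p-values below may thus reflect technical spread between libraries.

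Complex I takes electrons from NADH and complex II from succinate, both pass them by way of ubiquinone to complex III, and the proton gradient that complexes I and III help to build drives ATP synthase. Complex II is also an enzyme of the citric acid cycle and is the only one of these complexes with no subunit encoded in mitochondrial DNA. In macrophages the balance of respiration and glycolysis changes with activation, and succinate oxidation by complex II has been tied to inflammatory activation. Ndufa4 was first assigned to complex I and is now counted with complex IV, and the Ndufa4l3-miR147 locus encodes a related small protein and a microRNA, so neither deleted gene is among the 71.

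The deletion labels could be checked for one genotype only. The Ndufa4l3-miR147 gene, listed as AA467197, had 2.9, 2.21 and 4.5 TPM in Ndufa4l3-miR147 KO libraries, 527, 472 and 519 TPM in Ndufa4 KO libraries, and 365, 358 and 355 TPM in WT libraries. Ndufa4 itself was listed at or below 0.621 TPM in every library, WT included, so its value checks nothing. The markers were those of macrophages: all 8 macrophage markers were kept, with summed levels of 10996 to 12617 TPM, and none of the 7 T, B and NK cell markers was kept, with sums of at most 1.11 TPM. Summed neutrophil markers ran from 1.39 to 72.3 TPM, dendritic cell markers from 27.3 to 76.5 TPM, fibroblast markers from 4.04 to 13.9 TPM and erythroid markers from 10.1 to 148 TPM. The highest dendritic cell sums were those of the 3 Ndufa4 KO libraries, at 76.5, 55.8 and 40.4 TPM. Most of each sum was 1 gene, Clec9a, at 73.4, 53.5 and 38.7 TPM. Xcr1 had 2.83, 1.69 and 1.45 TPM there, and Flt3, Zbtb46 and Siglech stayed below 1 TPM in every library. In Ndufa4 KO against WT, 1 of the 2 dendritic cell markers kept was higher at an adjusted p under 0.05 by limma. Of the 8 macrophage markers 1 was higher and 1 lower, and no neutrophil, fibroblast or erythroid marker passed. Over all genes 8.59% passed. Without Ndufa4 KO replicate 3 these marker counts were the same, against 14.2% of all genes. The part of these markers in the results below was not tested. One library stood apart: Ndufa4 KO replicate 3 had an upper-quartile level of 7.79 TPM, against 9.24 to 9.84 TPM in the other 8. Calls and set medians that involve Ndufa4 KO are therefore given with and without it, while counts of non-overlapping libraries use all 9.

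Most of the 71 genes were strongly expressed. Their mean levels over the 9 libraries ran from 1.81 TPM for Atp5s to 1015 TPM for Atp5b, the catalytic beta subunit of ATP synthase, with a median of 183 TPM. There were 47 genes at 100 TPM or more and 13 under 50 TPM. Summed over the 71, they made up 1.45% to 1.69% of the TPM of named genes, 13352 TPM in the lowest library and 15516 TPM in the highest. The lowest and the highest of these sums were both Ndufa4 KO libraries, replicates 1 and 3.

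Levels differed between the roles. The 5 genes of the catalytic F1 head of ATP synthase had a median of 498 TPM and were led by Atp5b and Atp5e, the epsilon subunit gene at 651 TPM. Atp5a1, the alpha subunit, stood at 498 TPM, Atp5c1, the gamma subunit, at 268 TPM, and Atp5d, the delta subunit, was lowest at 219 TPM. The 7 stalk and membrane genes had a median of 315 TPM, from 205 TPM for Atp5j2 to 469 TPM for Atp5h and 483 TPM for Atp5l. Outside the symbol rule, Usmg5 (Atp5md) stood above them at 539 TPM, and 2010107E04Rik (Atp5mpl) at 391 TPM. The 8 complex III genes had a median of 230 TPM, from 116 TPM for the core protein gene Uqcrc2 to 316 TPM for Uqcr10 and 417 TPM for Uqcrb. The other core protein gene, Uqcrc1, stood at 166 TPM. Cyc1, the complex III gene outside the symbol rule, stood at 115 TPM.

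The 4 complex II genes lay between 183 and 301 TPM, the narrowest span of any role when the highest mean is set against the lowest. Sdhb, the iron-sulfur subunit, averaged 301 TPM, Sdha, the flavoprotein that oxidises succinate, 254 TPM, and the membrane anchors Sdhd and Sdhc 201 and 183 TPM. Complex I was lower and wider. Its 7 core genes had a median of 109 TPM, from 34.0 TPM for Ndufs8 to 206 TPM for Ndufs7, with Ndufv2 at 109 TPM. The 10 Ndufb genes, supernumerary subunits of the membrane arm, had a median of 140 TPM, from 46.1 TPM for Ndufb4 to 232 TPM for Ndufb7 and 319 TPM for Ndufb8. The 18 other supernumerary genes had a median of 171 TPM, from 25.5 TPM for Ndufs4 to 218 TPM for Ndufv3 and 407 TPM for Ndufa12.

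Assembly factors, which help to build complex I and are not part of the finished enzyme, lay far below the subunits. The 7 Ndufaf genes had a median of 15.4 TPM, from 6.74 TPM for Ndufaf7 to 18.2 TPM for Ndufaf3 and 35.5 TPM for Ndufaf2. Each of the 7 was lower than every complex II, complex III and F1 gene, and Ndufs8 and Ndufs4 were the only subunit genes with means below that of Ndufaf2. Atp5sl, the gene now called Dmac2 and a factor for the membrane arm of complex I, stood at 18.9 TPM.

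**Figure D1:**
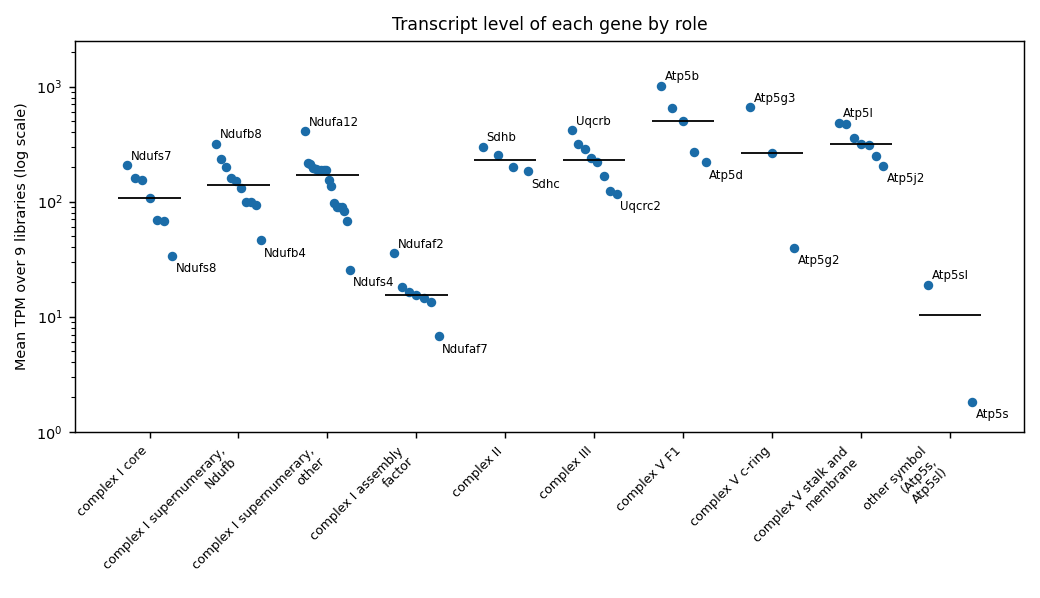
Mean TPM over 9 libraries (log axis) of each of the 71 genes, grouped by role, with a bar at the group median and the highest and lowest gene of each group named. Assembly factors lie between 6.74 and 35.5 TPM, and the catalytic F1 genes of ATP synthase between 219 and 1015 TPM.

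Atp5g1, Atp5g2 and Atp5g3 encode the same mature c subunit, which forms the rotating ring of ATP synthase, and differ in the targeting peptide that is cut off. Atp5g3 supplied most of their summed TPM in every library, 65.9% to 70.7%. Atp5g1 supplied 25.75% to 29.15% and Atp5g2 2.94% to 5.25%. The order of the 3 genes was the same in all 9 libraries, and the ranges of the 3 shares did not meet.

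Between Ndufa4l3-miR147 KO and WT macrophages, none of the 71 genes passed an adjusted p of 0.05 in either direction (limma on log2(TPM + 1), Benjamini-Hochberg adjustment over all 11133 genes). At the same threshold 0.431% of all genes were called, 27 (0.243%) higher and 21 (0.189%) lower. Without Ndufa4 KO replicate 3, which lends its spread to the fit, again none of the 71 was called, against 1.78% of all genes (0.997% higher, 0.781% lower). The median log2 change of the 71 was -0.01, against 0.00 for all genes, with 28 of 71 positive. The changes ran from -0.47 for Atp5s to 0.22 for Ndufaf6. For 68 of the 71 genes the 95% confidence interval lay within 0.5 log2 units of no change, and for all 71 within a 2-fold change.

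Median changes were within 0.12 log2 units of 0 in every role but one. The core genes of complex I had a median log2 change of -0.01, the Ndufb genes 0.00, the other supernumerary genes 0.00, complex II -0.02, complex III -0.05, F1 -0.01, the c-ring genes -0.04 and the stalk and membrane genes -0.02. The assembly factors had the highest median, 0.12, with 5 of 7 positive, and the pair Atp5s and Atp5sl the lowest, -0.32. Among all 11133 genes, 917 had an unadjusted p below 0.05 by limma. Of the 71 only 1 did: Ndufb5, a membrane-arm subunit of complex I. It had 85.4, 93.4 and 97.4 TPM in Ndufa4l3-miR147 KO libraries, against 107, 110 and 96.2 TPM in WT libraries, and the groups overlapped. Its log2 change was -0.18 ± 0.07 (SE) with an adjusted p of 0.546 by limma.

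Atp5s, the lowest gene kept, had 1.42, 1.09 and 1.59 TPM in Ndufa4l3-miR147 KO libraries, against 2.44, 1.62 and 2.88 TPM in WT libraries. Its change of -0.47 ± 0.21 had an adjusted p of 0.622, and its 95% interval, -0.96 to 0.01, was among the widest. For the main catalytic genes the limits were closer. The log2 change was -0.01 ± 0.06 for Atp5b and -0.07 ± 0.04 for Atp5a1, and the lower ends of their 95% intervals were -0.14 and -0.15. For Sdha, with 244, 290 and 262 TPM in Ndufa4l3-miR147 KO libraries against 287, 274 and 241 TPM in WT libraries, the change was -0.01 ± 0.18.

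All 3 Ndufa4l3-miR147 KO libraries lay above all 3 WT libraries for 2 of the 71 genes, Ndufaf6 and Ndufs4, where 11.9% of all genes did so. They lay below for 8 of 71, Atp5a1, Atp5c1, Atp5h, Atp5o, Atp5s, Ndufs1, Uqcrfs1 and Uqcrh, where 12.0% of all genes did so, which for 71 genes is a like share. The differences behind these orders were small: among the 8, only Atp5s had a log2 change beyond 0.25 in size.

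**Figure D2:**
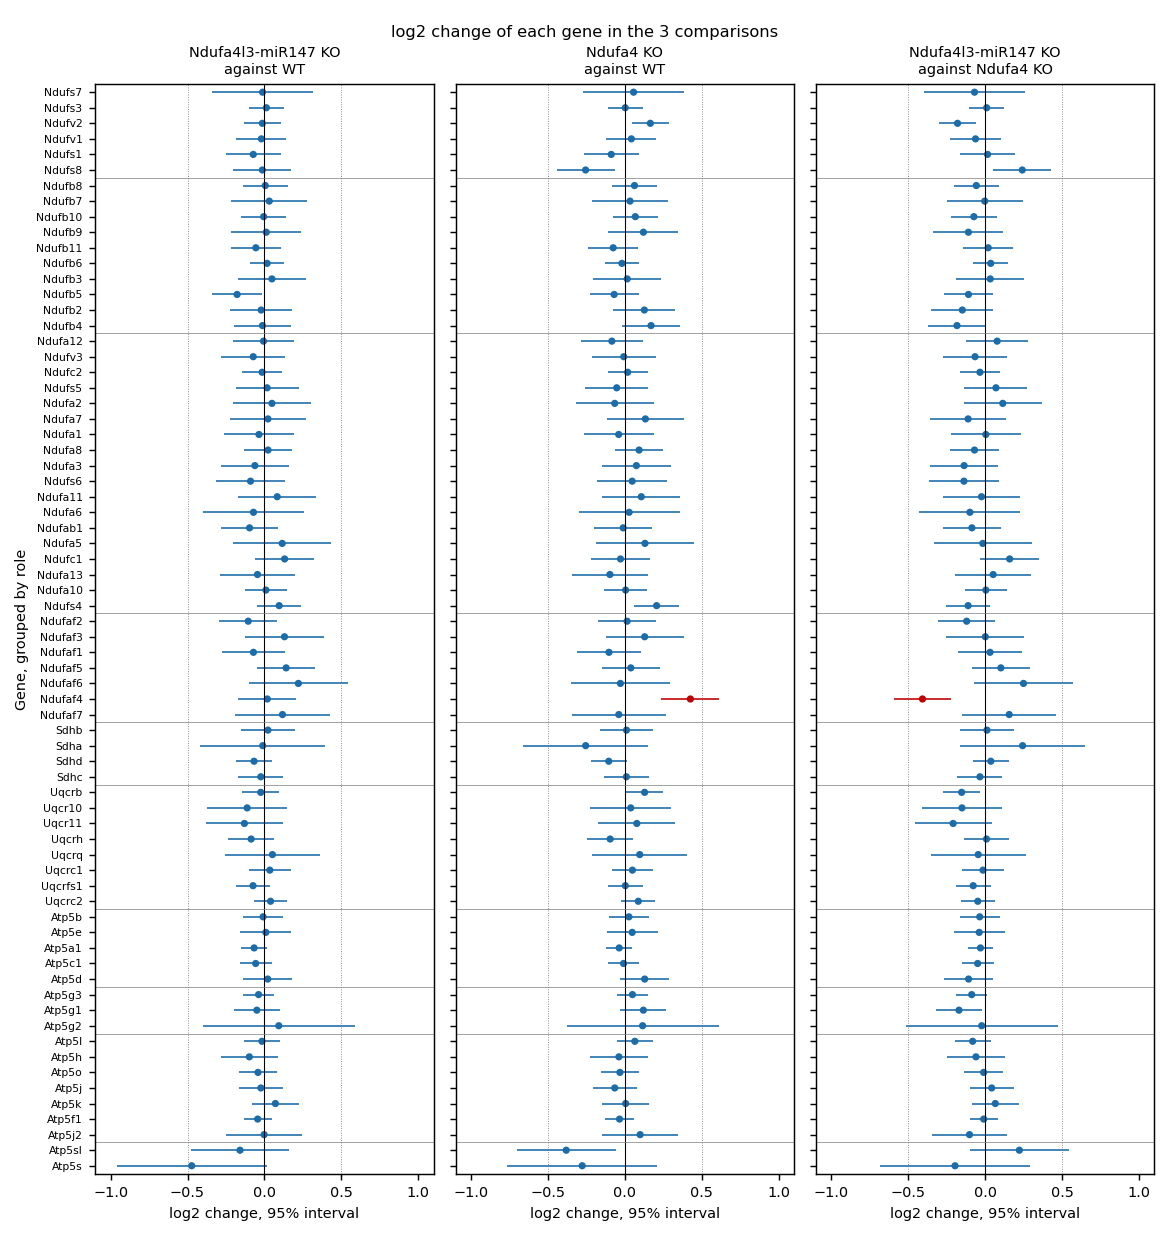
The log2 change of 70 of the 71 genes (points) with its 95% confidence interval (bars) in the 3 comparisons, grouped by role from complex I core genes at the top to Atp5sl and Atp5s at the bottom, with dotted lines at 0.5 log2 units either side of 0. Ndufaf4, in red, is the only gene called, at 0.43 in Ndufa4 KO against WT and -0.41 in Ndufa4l3-miR147 KO against Ndufa4 KO.

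Between Ndufa4 KO and WT macrophages, 1 of the 71 genes rose, the complex I assembly factor gene Ndufaf4, and none fell. That is 1.41% of the 71, against 8.59% of all genes, 315 (2.83%) higher and 641 (5.76%) lower. With the libraries scaled by median of ratios, calls over all genes split into 492 higher and 442 lower, and Ndufaf4 was again the one gene of the 71 called. The median log2 change of the 71 was 0.02, against -0.08 for all genes, with 43 of 71 positive. With median-of-ratios scaling it was 0.09, against -0.01 for all genes, with 59 of 71 positive. For 66 of the 71 the 95% interval lay within 0.5 log2 units of no change, and for all 71 within a 2-fold change.

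Ndufaf4 had 15.8, 16.2 and 16.7 TPM in Ndufa4 KO libraries, against 10.8, 12.7 and 12.0 TPM in WT libraries. The 3 Ndufa4 KO libraries lay close together, and all were above the highest WT library. The mean was 16.2 ± 0.489 TPM in Ndufa4 KO and 11.8 ± 0.941 TPM in WT (SD, n = 3 each). The log2 change was 0.43 ± 0.08 (SE; 95% interval 0.24 to 0.61), a 1.34-fold difference on the TPM + 1 scale, with an adjusted p of 0.0175 by limma. Without Ndufa4 KO replicate 3 it was 0.40 ± 0.08 with an adjusted p of 0.0174. In bulk RNA, more transcript per cell and a change in the mix of cells cannot be told apart. The call was lost without WT replicate 1 (adjusted p = 0.0796) and without WT replicate 3 (adjusted p = 0.0641).

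The other 6 assembly factor genes did not pass the test in that comparison. Ndufaf1, Ndufaf2, Ndufaf3, Ndufaf5, Ndufaf6 and Ndufaf7 had log2 changes between -0.10 and 0.13. Ndufaf4 works early in the assembly of complex I, beside Ndufaf3. Ndufaf3 had 18.1, 16.0 and 22.5 TPM in Ndufa4 KO libraries, against 16.4, 16.9 and 17.8 TPM in WT libraries, with a change of 0.13 ± 0.11 and an adjusted p of 0.494.

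Ndufaf4 is encoded on mouse chromosome 4 (GRCm38 chr4:24898083-24905001, plus strand), and its annotated exons overlap no other gene. Promoter sequences from RefSeq (GRCm38.p6) were found for 61 of the 71 genes. In the 250 bases before the start, on both strands, the word GCATGCGC, a core of sites of the respiratory-gene factor NRF1, occurred in 8 of 61 (13.1%), against 2.32% of 27025 promoters. The 27025 include genes that did not pass the level filter here, so these sets differ in expression as well. The ETS-type word CCGGAAGT occurred in 4.92% of the 61 and in 2.93% of all promoters, and the YY1-type word AAGATGGC in none of the 61 and in 1.59% of all. GGGCGGGG, an SP1-type word, was in 21.3% and 16.3%, and CCAAT in 44.3% and 34.5%. The 8 genes with the NRF1 word were Atp5g2, Atp5k, Atp5l, Ndufa11, Ndufa6, Ndufa8, Ndufaf4 and Sdhb. Ndufaf4 was the only one of all 71 genes called with all 9 libraries. A single call cannot compare genes with and without the word. The 250 bases are shown for the gene that was called, for 2 genes called in Ndufa4 KO against WT only without replicate 3, and for Sdhb, which has the NRF1 word and was not called. Capitals mark matches of the NRF1, ETS and YY1 words.
Ndufaf4, chr4:24897833-24898082, plus strand, NRF1 word on both strands in overlap, 103 bases before the start: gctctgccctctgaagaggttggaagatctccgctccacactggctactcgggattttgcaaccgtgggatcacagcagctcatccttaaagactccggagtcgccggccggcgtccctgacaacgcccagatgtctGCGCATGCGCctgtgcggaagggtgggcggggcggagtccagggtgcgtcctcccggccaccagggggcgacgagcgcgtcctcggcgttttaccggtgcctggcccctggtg
Ndufs8, chr19:3912775-3913024, minus strand, none of the 3 words: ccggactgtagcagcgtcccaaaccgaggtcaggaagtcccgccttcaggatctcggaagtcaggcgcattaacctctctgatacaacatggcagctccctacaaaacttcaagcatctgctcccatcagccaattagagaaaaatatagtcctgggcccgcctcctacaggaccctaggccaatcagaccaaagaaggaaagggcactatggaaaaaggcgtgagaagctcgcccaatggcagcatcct
Uqcrh, chr4:116075071-116075320, minus strand, ETS word 3 bases before the start: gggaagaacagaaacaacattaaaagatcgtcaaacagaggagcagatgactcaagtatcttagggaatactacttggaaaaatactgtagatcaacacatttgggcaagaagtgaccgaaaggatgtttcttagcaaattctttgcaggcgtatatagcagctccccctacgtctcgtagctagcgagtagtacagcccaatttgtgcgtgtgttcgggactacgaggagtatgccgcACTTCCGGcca
Sdhb, chr4:140961021-140961270, plus strand, NRF1 word 46 bases before the start: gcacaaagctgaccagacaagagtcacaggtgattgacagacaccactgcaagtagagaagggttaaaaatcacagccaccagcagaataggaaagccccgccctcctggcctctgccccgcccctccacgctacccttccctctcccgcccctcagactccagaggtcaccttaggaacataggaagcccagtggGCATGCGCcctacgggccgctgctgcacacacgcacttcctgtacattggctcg
A match describes these letters only and was not tested as a binding site.

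In Ndufa4 KO against WT, 6 of the 71 genes had an unadjusted p below 0.05 by limma, as did 2905 of all 11133 genes. The 5 besides Ndufaf4 did not pass the adjusted threshold. Ndufs8, an iron-sulfur core subunit of complex I, had 27.9, 29.2 and 33.2 TPM in Ndufa4 KO libraries, against 37.2, 35.7 and 35.2 TPM in WT libraries. All 3 Ndufa4 KO libraries were below all 3 WT libraries, with replicate 3 nearest to WT, and the log2 change was -0.25 ± 0.08 (adjusted p = 0.0945 by limma). Ndufv2, a core subunit of the NADH-oxidising module, had 122, 110 and 120 TPM in Ndufa4 KO libraries, against 107, 101 and 105 TPM in WT libraries. Its change was 0.17 ± 0.05 (adjusted p = 0.0893).

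Ndufs4, a supernumerary subunit of the same module, had 25.8, 27.7 and 29.1 TPM in Ndufa4 KO libraries, against 23.0, 23.8 and 24.3 TPM in WT libraries. Again no libraries overlapped, and the change was 0.21 ± 0.06 (adjusted p = 0.0812). Uqcrb of complex III, with 420, 436 and 478 TPM in Ndufa4 KO libraries against 411, 414 and 393 TPM in WT libraries, changed by 0.13 ± 0.05 (adjusted p = 0.167). Atp5sl, with 13.3, 18.8 and 16.7 TPM in Ndufa4 KO libraries against 23.5, 18.4 and 22.2 TPM in WT libraries, changed by -0.38 ± 0.14 (adjusted p = 0.132), and its groups overlapped. Of the 7 core genes of complex I, 4 had a positive and 3 a negative change. None of the 7 was called with all 9 libraries, and some changes were near 0, such as Ndufs3 at 0.00 ± 0.05. Without Ndufa4 KO replicate 3 only 2 of the 7 were positive. Without that library the changes were 0.15 for Ndufv2, 0.17 for Ndufs4, 0.08 for Uqcrb and -0.40 for Atp5sl, and none of these 4 was called. Ndufv2 was called without Ndufa4 KO replicate 2 (0.21, adjusted p = 0.038 by limma), as were 9.71% of all genes. Ndufs4 was called without Ndufa4 KO replicate 1 (0.25, adjusted p = 0.0418 by limma), as were 9.98% of all genes.

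Non-overlapping libraries were found for 7 genes higher in Ndufa4 KO, Atp5d, Ndufaf4, Ndufb4, Ndufs4, Ndufv2, Uqcrb and Uqcrc2, where 9.40% of all genes were so placed. They were found for 1 gene lower, Ndufs8, where 21.7% of all genes were so placed.

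The remaining catalytic and core genes had changes near 0. In Ndufa4 KO against WT the log2 change was 0.03 ± 0.06 for Atp5b, -0.04 ± 0.04 for Atp5a1, -0.01 ± 0.05 for Atp5c1, 0.05 ± 0.06 for Uqcrc1 and 0.00 ± 0.05 for the Rieske protein gene Uqcrfs1. None of these passed the test, and the c-ring genes Atp5g1, Atp5g2 and Atp5g3 changed by 0.12 ± 0.07, 0.12 ± 0.22 and 0.05 ± 0.04.

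Complex II gave the widest interval among its catalytic genes. Sdha had 181, 312 and 196 TPM in Ndufa4 KO libraries, against 287, 274 and 241 TPM in WT libraries. Replicate 2 lay above every WT library and replicates 1 and 3 below every one. The change was -0.25 ± 0.18 (95% interval -0.66 to 0.15, adjusted p = 0.401 by limma). Without Ndufa4 KO replicate 2 it was -0.50 with an adjusted p of 0.0216, and without replicate 3 it was -0.16 with an adjusted p of 0.63, so the call depends on one library. Sdhb, Sdhc and Sdhd changed by 0.01, 0.01 and -0.10 and were not called.

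Without Ndufa4 KO replicate 3, calls between Ndufa4 KO and WT covered 14.2% of all genes (5.54% higher, 8.70% lower), and 4 of the 71 were among them. Ndufaf4 rose. Ndufs8 fell by 0.33 on the log2 scale (adjusted p = 0.0211), Uqcrh, the hinge protein of complex III, fell by 0.17 (adjusted p = 0.0394), and Ndufa2, a supernumerary subunit of complex I, fell by 0.21 (adjusted p = 0.0454; all by limma). Uqcrh had 213, 228 and 256 TPM in Ndufa4 KO libraries, against 252, 242 and 248 TPM in WT libraries, so replicate 3 alone was above WT. Ndufa2 had 165, 168 and 226 TPM in Ndufa4 KO libraries, against 201, 190 and 187 TPM in WT libraries, with the same order. Exons of Ndufa2 overlap those of Tmco6 on the other strand, and whether reads were assigned by strand is not given in the sources used. The median log2 change of the 71 became -0.04 without the library, against -0.03 for all genes, with 21 of 71 positive in place of 43. The sign of the set median in Ndufa4 KO therefore turned on that one library, and without it the set lay close to all genes.

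**Figure D3:**
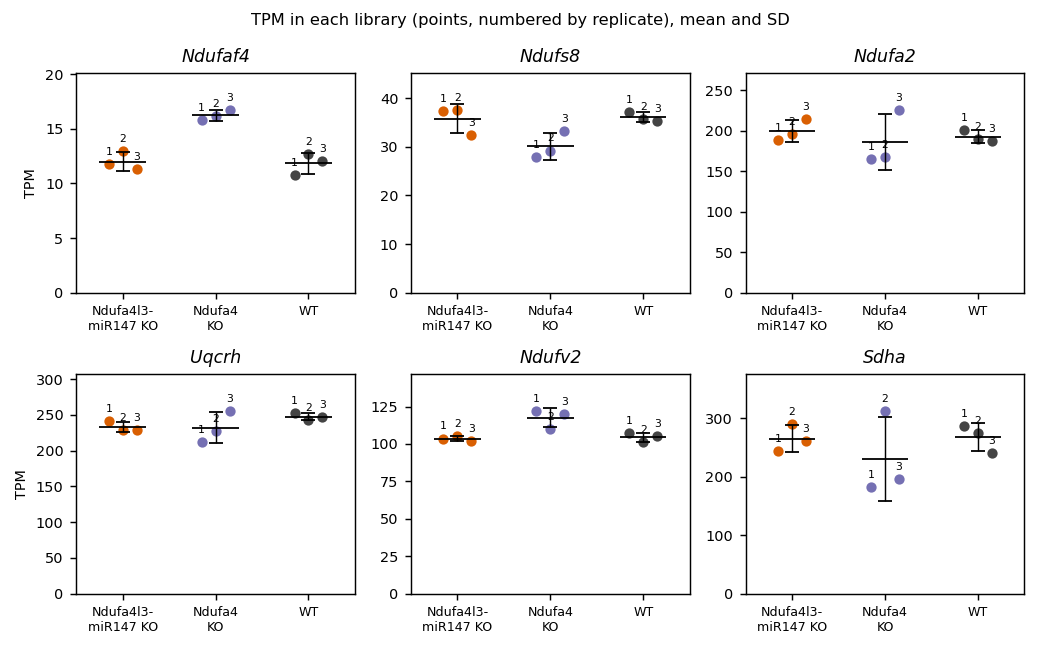
TPM of 6 genes in each library (points, numbered by replicate), with the group mean (long bar) and SD (whiskers, n = 3), for Ndufa4l3-miR147 KO, Ndufa4 KO and WT. For Ndufaf4 the Ndufa4 KO points, 15.8 to 16.7 TPM, clear both other genotypes, while for Ndufa2 and Uqcrh Ndufa4 KO replicate 3 lies above and replicates 1 and 2 below the WT points.

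Between Ndufa4l3-miR147 KO and Ndufa4 KO macrophages, Ndufaf4 fell and no gene rose, 1.41% of the 71 against 3.24% of all genes, 245 (2.20%) higher and 116 (1.04%) lower. With median-of-ratios scaling the calls over all genes were 146 higher and 148 lower, and Ndufaf4 was still the one gene of the 71 called. The 3 comparisons share libraries in pairs, so they are not independent of each other. Ndufaf4 had 11.8, 12.9 and 11.3 TPM in Ndufa4l3-miR147 KO libraries, against 15.8, 16.2 and 16.7 TPM in Ndufa4 KO libraries, with no overlap. The log2 change was -0.41 ± 0.08 (95% interval -0.60 to -0.22) with an adjusted p of 0.0352 by limma, and -0.39 with an adjusted p of 0.0328 without Ndufa4 KO replicate 3. The call was lost when any one library of Ndufa4l3-miR147 KO (adjusted p of 0.138, 0.0726 and 0.148 without replicates 1, 2 and 3) or of WT (0.0525, 0.0618 and 0.0721) was left out, and without Ndufa4 KO replicate 2 (0.058).

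The median log2 change of the 71 was -0.03, against 0.07 for all genes, with 26 of 71 positive, and 65 of 71 intervals lay within 0.5 log2 units of no change. Without Ndufa4 KO replicate 3 the median turned to 0.03, against 0.03 for all genes, with 43 of 71 positive. With median-of-ratios scaling it was -0.11, against 0.01 for all genes, with 9 of 71 positive. An unadjusted p below 0.05 by limma was found for 5 of the 71 genes, and for 2263 of all 11133. Besides Ndufaf4 they were Ndufv2 at -0.18 ± 0.05, Ndufs8 at 0.24 ± 0.08, Uqcrb at -0.15 ± 0.05 and Atp5g1 at -0.17 ± 0.07. Their adjusted p were 0.113, 0.161, 0.161 and 0.198 by limma. The libraries did not overlap for 7 genes lower in Ndufa4l3-miR147 KO, Atp5g1, Atp5g3, Ndufaf4, Ndufb4, Ndufv2, Uqcrb and Uqcrfs1, where 6.98% of all genes were so placed, and for none higher, where 18.3% were. Without Ndufa4 KO replicate 3, Ndufa2 (0.26, adjusted p = 0.0359) and Ndufs8 (0.31, adjusted p = 0.0393) were also called, both higher in Ndufa4l3-miR147 KO. Ndufv2, Uqcrb and Atp5g1 then stood at -0.16, -0.10 and -0.11, not called, while 6.65% of all genes were called, 4.45% higher and 2.20% lower. Without Ndufa4 KO replicate 2, Ndufv2 (-0.23, adjusted p = 0.0485) and Sdha (0.48, adjusted p = 0.0357) were called by limma, as were 4.18% of all genes.

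The Ndufa4 KO libraries differed among themselves more than those of the other genotypes. The 71 genes had a median within-genotype SD of 0.07 log2 units in Ndufa4l3-miR147 KO, 0.13 in Ndufa4 KO and 0.06 in WT, and 57 of 71 had their largest SD in Ndufa4 KO. Over all genes the medians were 0.08, 0.17 and 0.07. Ndufa4 KO replicate 3 held the highest value of the 9 libraries for 45 of the 71 genes (63.4%), against 14.2% of all genes. The complex IV subunit genes read beside the set were also highest in that library, except Cox5a and Cox7a2l. Being highest there was thus not particular to the 71. Ndufa4 KO replicate 1 held the lowest value for 28 of the 71 (39.4%), against 16.0% of all genes. For 25 genes both the highest and the lowest library were of that one genotype.

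The shift was shared by most roles. In Ndufa4 KO replicate 3 the median deviation from each gene's 9-library mean was 0.16 log2 units over the 71 genes, against -0.12 over all genes. It was 0.19 for the Ndufb genes, 0.21 for the other supernumerary genes, 0.17 for complex III, 0.22 for the c-ring and 0.13 for assembly factors, and smaller for complex I core genes (0.07), complex II (0.04) and F1 (0.03). In replicate 1 of the same genotype it was -0.07 over the 71 genes. The genes that varied most over the 9 libraries were Atp5s, Atp5g2, Sdha and Atp5sl. Of these Atp5g2 had 35.4, 49.6 and 35.8 TPM in Ndufa4l3-miR147 KO libraries, 29.1, 43.5 and 51.9 TPM in Ndufa4 KO libraries, and 40.0, 30.4 and 42.2 TPM in WT libraries, with all 3 genotypes overlapping.

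**Figure D4:**
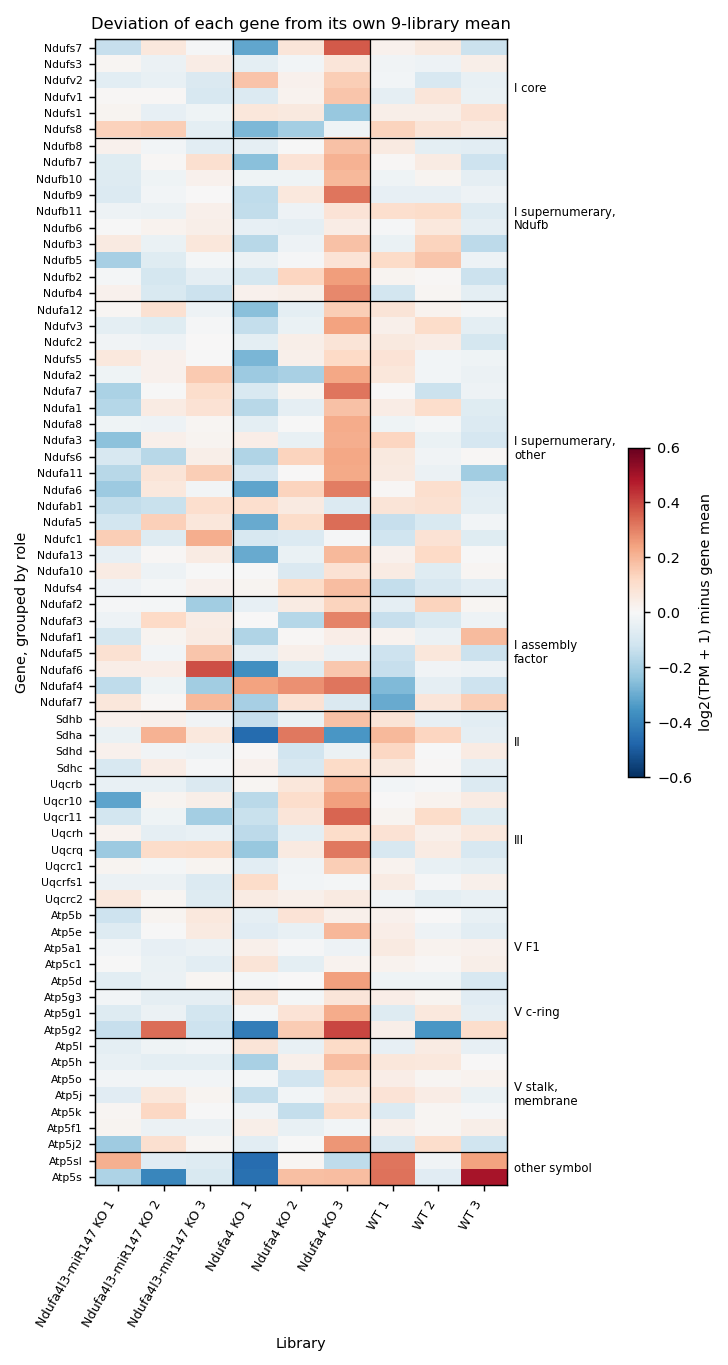
Deviation of log2(TPM + 1) from each gene's own 9-library mean (colour, red higher and blue lower) for 70 of the 71 genes (rows, by role) in the 9 libraries (columns, by genotype). The column of Ndufa4 KO replicate 3 is red for most genes, Ndufaf4 is red in all 3 Ndufa4 KO columns, and Sdha changes colour within Ndufa4 KO.

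Transcript length moved with the same library. The 71 genes are short by annotation, with a median transcript length of 763 bases (GENCODE M21), from 322 bases for Atp5k to 2676 for Atp5g1. The median was 2014 bases for the 11066 genes kept that have a length. Each gene's length is the median over its annotated transcripts, which can differ from that of the transcript expressed. In Ndufa4 KO replicate 3, Spearman's rho between length and deviation was -0.41 across the 71 genes and -0.41 across all genes, as a description across genes of one library, which are not independent replicates. In the other 8 libraries the rho lay between -0.20 and 0.36 across the 71 genes, highest in Ndufa4l3-miR147 KO replicate 1, and between 0.05 and 0.21 across all genes. Genes of 3000 bases or more had a median deviation of -0.31 in that library. The 35 genes of the set under 750 bases had a median deviation of 0.19 there, against 0.03 for 1303 other genes of that length. These other genes were not matched for level, and the cause of the difference was not tested. With the length trend removed from each library, Ndufaf4 and Ndufs4 (0.23, adjusted p = 0.035 by limma) were the genes of the 71 called higher in Ndufa4 KO against WT. Of all 11066 genes with a length, 584 were called higher there, and 9.89% in either direction.

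**Figure D5:**
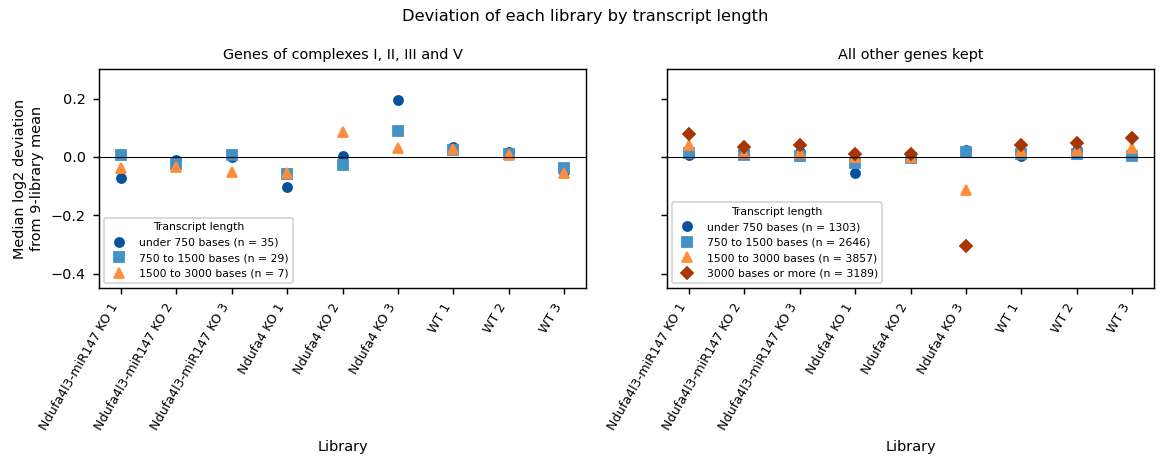
Median log2 deviation from the 9-library mean in each library for transcript length classes, for the 71 genes (left) and all other genes kept (right). In Ndufa4 KO replicate 3 the genes of the set under 750 bases lie at 0.19 and other genes of 3000 bases or more at -0.31, while the classes lie closer together in the other 8 libraries.

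Genes that work with these complexes, and Cyc1, a complex III subunit gene outside the symbol rule, were read beside them. Between Ndufa4l3-miR147 KO and WT, none was called among 12 complex I assembly genes outside the Ndufaf family, Atp5sl included, 15 assembly genes of complexes II, III and V, 12 complex IV subunit genes, 10 mitochondrially encoded genes of complexes I, III and V, 11 regulators of respiratory genes, and Cyc1 and Cycs. Over all genes 0.431% were called in that comparison. Ppargc1a, the twelfth regulator and a coactivator of mitochondrial biogenesis, was at most 0.529 TPM and was not kept. Atpif1, the inhibitor of ATP synthase, had 492, 547 and 516 TPM in Ndufa4l3-miR147 KO libraries, 553, 603 and 726 TPM in Ndufa4 KO libraries, and 550, 541 and 553 TPM in WT libraries. Its log2 change was -0.08 ± 0.09 in Ndufa4l3-miR147 KO against WT and 0.19 ± 0.09 in Ndufa4 KO against WT, and neither passed the test.

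Between Ndufa4 KO and WT, 1 of the 10 mitochondrially encoded genes rose and 8 of 10 had a positive change, with a median of 0.23 (0.25 without Ndufa4 KO replicate 3). Over all genes the median was -0.08 (-0.03 without that library), and 8.59% were called (14.2% without it). The gene that rose was mt-Nd3, a complex I subunit, with 1693, 1459 and 1609 TPM in Ndufa4 KO libraries, against 1303, 1313 and 1311 TPM in WT libraries. Its change was 0.28 ± 0.06 (adjusted p = 0.027 by limma), and 0.26 (adjusted p = 0.0327) without Ndufa4 KO replicate 3. Of 12 complex IV genes Cox7c rose (0.21, adjusted p = 0.0405; 0.16 and 0.0316 without that library) and Cox7a2l, a factor that joins complexes III and IV, fell by 0.16 (adjusted p = 0.048; -0.15 and 0.0316 without it). None of the 12 complex I assembly genes, the 15 other assembly genes or the 11 regulators was called, with or without that library. Cycs, cytochrome c, was not called with all 9 libraries (0.27, adjusted p = 0.0525) and was called without that library (0.30, adjusted p = 0.0281). In Ndufa4l3-miR147 KO against Ndufa4 KO, mt-Nd3 fell by 0.29 (adjusted p = 0.0398 by limma), and no other gene of these lists was called. Over all genes 3.24% were called in that comparison, 1.04% lower.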

How the data were processed

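PolyA RNA was sequenced from 9 libraries, 3 per genotype. The authors deposited TPM per gene symbol. The tools named per the submitters' processing notes are edgeR, DESeq2 and kallisto, without versions or roles, and the builds named are GRCm39 and mm10. Annotation release and strandedness: not given in the sources used here. Read depth is unknown, so no counting interval is given. A gene was kept where 3 or more of the 9 libraries had 1 TPM or more (11133 genes). log2(TPM + 1) was fitted with limma 3.58.1 (R 4.3.3), 1 mean per genotype over all 9 libraries, with an intensity trend and Benjamini-Hochberg adjustment over all genes kept; calls are at an adjusted p under 0.05. A fold change on this scale understates the change of genes at low level. The fit was tested on simulated data. Tables and plots used Python 3.11.15, pandas 2.3.3, numpy 2.4.6, scipy 1.17.1 and matplotlib 3.10.9.

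The genes and lists were chosen with earlier results of these data known. Named genes were those called (else the lowest p), the 2 highest and the lowest of each role, complex II, core and catalytic subunits, the inhibitor, the 4 most variable and the lowest in level; others, such as Uqcrh and Ndufa2, were named after their values were seen. The values of 1 gene are not reported here. Gene positions and transcript lengths (median over protein-coding transcripts) come from GENCODE M21 (GRCm38), and promoters from RefSeq (GRCm38.p6). The alternatives were other pseudocounts, filters and scalings, the 6 libraries of each comparison alone, a replicate block, removal of the length trend, and leaving out each library.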

Additional observations from a re-analysis of the deposited data

How the results depend on the processing

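Over 20 alternatives per comparison, 0 of the named genes' called changes reversed. The median log2 change of the 71 genes in Ndufa4 KO against WT was 0.0896 with median-of-ratios scaling. Genes of the 71 called higher there numbered 0 with only the 6 libraries compared (Ndufaf4 adjusted p = 0.0673 by limma), 2 with the length trend removed, and 0 to 2 when 1 library was left out, while those called lower numbered 0 to 3. Calls over all genes covered 2.14% with only the 6 libraries and 9.89% with the length trend removed. They covered 2.39% to 14.2% when 1 library was left out. The 3 lower calls came without Ndufa4 KO replicate 3, where 8.70% of all genes were called lower. In Ndufa4l3-miR147 KO against Ndufa4 KO, genes of the 71 called lower numbered 0 with no filter (Ndufaf4 adjusted p = 0.0559 by limma), 0 with only the 6 libraries (0.123), 0 with the replicate block and 0 to 1 when 1 library was left out, while those called higher numbered 0 to 2. Over all genes the shares called were 1.16%, 0.575%, 1.46% and 0.737% to 6.65% in the same order. The cause of these changes was not tested beyond the fewer libraries or the wider adjustment. Counts in Ndufa4l3-miR147 KO against WT stayed at 0, where 0.117% to 2.75% of all genes were called.

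No pairing by replicate number was seen: deviations of same-numbered libraries correlated at -0.138 to 0.179 over all genes and at -0.194 to 0.35 over the 71, and over all genes 0 of 9 correlated best with their own number in both other genotypes. Deviations were taken from the mean of 3 libraries per genotype and so sum to 0, which makes this a weak check of pairing. With the replicate block Ndufaf4 was the 1 gene of the 71 called higher in Ndufa4 KO against WT, where 5.94% of all genes were called. Its adjusted p in Ndufa4l3-miR147 KO against Ndufa4 KO was 0.0717 by limma. With 3 technical libraries per genotype and depth unknown, small changes of genes at low level could not be resolved: the interval of Atp5s spanned nearly 1 log2 unit.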
